A study of Mus musculus with 2 samples.

Results

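Chemokines are small secreted proteins that guide leukocytes, and 10 chemokine genes were followed here in CD45-negative cells of mouse mammary tumours. They were picked by name from the 12707 genes of the deposited table: Cxcl1, Cxcl2 and Cxcl5, Cxcl9, Cxcl10 and Cxcl16, Ccl2, Ccl7 and Cx3cl1, and Cxcl12. All 10 were present. Tumours of Py8119, a mesenchymal-type mouse line derived from an MMTV-PyMT mammary tumour, were grown in Mtdh wild-type hosts and in hosts whose Mtdh was knocked out. The injected tumour cells are labelled wild type for Mtdh in both cases, so the groups differ in the host. After dissociation and red cell lysis, live cells without the leukocyte antigen CD45 were collected by flow cytometry. Each host genotype has 1 library, and the labels do not give the number, sex or age of the mice or how the knockout was made. The collected cells hold tumour cells and any CD45-negative host cells, such as fibroblasts, pericytes and endothelial cells, and which of them made a given chemokine RNA was not tested.

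Chemokines bind G protein-coupled receptors on leukocytes and are held on heparan sulphate of cell surfaces and matrix. CXCL1, CXCL2 and CXCL5 act through CXCR2 and draw mainly neutrophils. CXCL9 and CXCL10, which interferon gamma induces, act through CXCR3 on activated T cells, and CXCL16 acts through CXCR6. CCL2 and CCL7 draw monocytes through CCR2, and CX3CL1 (fractalkine) acts through CX3CR1 on monocytes and some lymphocytes. CXCL12, the ligand of CXCR4, is made constitutively by many stromal cells. Tumour cells can make several of these, and many of the genes are NF-kB targets.

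The regions upstream of 4 of the genes are shown because they set the neutrophil attractants Cxcl1 and Cxcl2 beside the T cell attractants Cxcl9 and Cxcl10, the classes whose median differences lay farthest apart with all genes of each class kept. They are the 250 bases before the annotated start, 5′ to 3′ on the gene's strand, from RefSeq on GRCm38.p6. That is an older build than the mm39 named for the deposited table. The windows are chr5:90890995-90891244 (plus strand) for Cxcl1, chr5:90903649-90903898 (plus strand) for Cxcl2, chr5:92328080-92328329 (minus strand) for Cxcl9 and chr5:92348890-92349139 (minus strand) for Cxcl10. Capitals mark matches, on either strand, to an NF-kB motif (GGGNNNNNCC), an interferon-stimulated response element (GAAANNGAAA) or a STAT motif (TTCNNNGAA), where N is any base and matches may overlap.
Cxcl1: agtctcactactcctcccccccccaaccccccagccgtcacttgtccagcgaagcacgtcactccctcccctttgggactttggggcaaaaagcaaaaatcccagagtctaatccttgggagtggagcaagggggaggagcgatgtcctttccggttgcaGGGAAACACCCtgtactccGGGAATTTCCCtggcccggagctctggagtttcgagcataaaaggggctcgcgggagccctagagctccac
Cxcl2: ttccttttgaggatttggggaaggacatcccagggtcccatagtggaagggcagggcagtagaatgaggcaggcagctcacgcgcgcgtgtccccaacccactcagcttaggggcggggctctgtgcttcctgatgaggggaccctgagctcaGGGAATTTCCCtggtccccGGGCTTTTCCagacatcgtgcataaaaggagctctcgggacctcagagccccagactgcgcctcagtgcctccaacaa
Cxcl9: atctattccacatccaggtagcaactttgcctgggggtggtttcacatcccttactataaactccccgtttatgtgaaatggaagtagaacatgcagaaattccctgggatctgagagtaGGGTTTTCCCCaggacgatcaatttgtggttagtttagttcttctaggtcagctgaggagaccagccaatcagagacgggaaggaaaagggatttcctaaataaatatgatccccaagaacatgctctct
Cxcl10: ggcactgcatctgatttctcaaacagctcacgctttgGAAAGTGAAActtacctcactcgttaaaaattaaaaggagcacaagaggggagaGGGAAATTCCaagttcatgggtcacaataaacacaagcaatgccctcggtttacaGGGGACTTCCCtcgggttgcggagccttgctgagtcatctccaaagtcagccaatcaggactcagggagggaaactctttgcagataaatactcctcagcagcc

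All 4 windows hold an NF-kB motif, which 45.8% of 32807 promoter windows of the same length also hold. Cxcl1 (bases -71 to -61) and Cxcl2 (bases -97 to -87) share the run GGGAATTTCCC, which was picked after it was seen and occurs in 14 of the 32807 windows (0.0427%). Cxcl10 alone among the 4 has the interferon-stimulated response element, from base -213 to -204, a motif found in 2.97% of all windows. None of the 4 holds the STAT motif, which 7.02% of windows hold. Promoter entries were matched for 6 of the 10 genes. Of the 2 matched genes not shown, Cxcl12 has an NF-kB motif and Cx3cl1 has none of the 3 motifs. These matches describe letters and not binding.

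The wild-type-host library held 26069366 recovered reads and the knockout-host library 23381739. Reads were recovered from the deposited log2(FPKM + 1) values, where FPKM is fragments per kilobase of the gene's genomic span per 1000000 of the listed genes. Mtdh itself had 28376 reads in the first and 23130 in the second, and its ratio was 0.909 (95% counting interval 0.893 to 0.925); the tumour cells are wild type for it, so this checks the host label little. Each ratio below is RPM (reads per 1000000 recovered reads) in the knockout-host library over that in the wild-type-host library. Its exact binomial interval covers counting error only, since there is no replicate, and every difference describes this pair of libraries. Fewer cells of a type and less RNA per cell cannot be told apart in such samples.

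Cxcl10 and Ccl2 were the chemokine genes with a clearly higher level in the knockout-host library, and Cxcl12 was nearly level. Cxcl1 and Ccl7 were moderately higher, Cx3cl1 was moderately lower, and Cxcl2, Cxcl5, Cxcl9 and Cxcl16 had few reads. The size rule required a gap of at least 1 between the deposited log2 values and a mean of at least 1. By this rule 7 of the 10 could be counted, of which 2 were higher (Cxcl10 and Ccl2) and 0 were lower. Over all 6057 genes counted the same way, 2.31% were higher and 2.64% lower. The median difference was 0.41 over the 7 chemokine genes and -0.03 over all 6057; over all 10 chemokine genes, unfiltered, it was 0.54. By reads, a gene was counted when it was 2-fold higher or lower among genes with 100 or more reads. Here 9 chemokine genes could be counted, with 4 higher (Cxcl9, Cxcl10, Cxcl16 and Ccl2) and 0 lower, against 8.89% higher and 12% lower of 10813 genes. Cxcl9 enters this count from a listed 0.

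**Figure D1:**
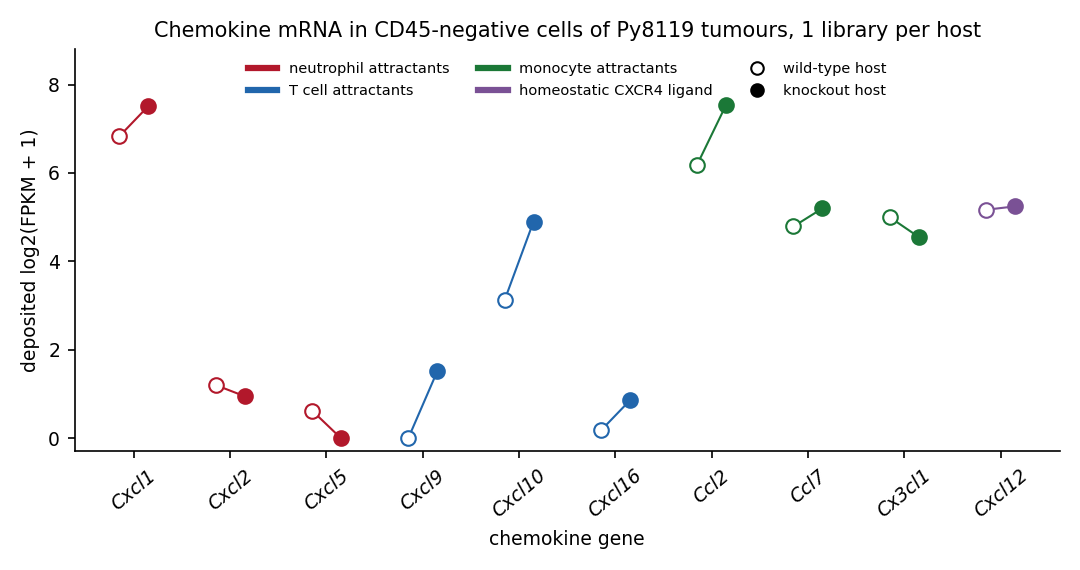
Deposited log2(FPKM + 1) of the 10 chemokine genes (horizontal axis) in the wild-type-host library (open circles) and from the knockout host (filled circles), joined by a line and coloured by the cells they attract. There is 1 library per host, so no error is drawn. Cxcl10 goes from 3.12 to 4.90 and Ccl2 from 6.19 to 7.54, while Cxcl12 stays near 5.2.

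All 3 T cell attractants had higher values in the knockout-host library, but with very different numbers of reads behind them. Cxcl10 (ENSMUSG00000034855, mm39 chromosome 5, 92494497 to 92496749, minus strand) was at FPKM 7.72 in the wild-type-host library and at 28.8 in the other. With 453 and 1518 reads, its ratio was 3.74 (95% counting interval 3.36 to 4.16), and its log2(FPKM + 1) difference was 1.77. Of the 2990 genes with 1000 to under 3000 reads in total, 0.635% had a ratio as high or higher. Cxcl10 lies within the span of Art3, a gene on the opposite strand with 1 and 44 reads. Whether counting used strand is not given in the sources used here, so reads of the pair could be mixed at that small scale.

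Cxcl9 (ENSMUSG00000029417, chromosome 5, 92469206 to 92475939, minus strand) lies close to Cxcl10. It was listed at 0 in the wild-type-host library and had 290.8 reads (FPKM 1.85) in the knockout-host library. No ratio is given, because a listed 0 can be a failed estimate. Ndufa11, a subunit of respiratory complex I, is also listed at 0 in the wild-type-host library, with 134 reads in the other, and so is the acetyltransferase gene Naa10, with 199; this pair was picked with its values in view. Over all genes, 511 were at an exact 0 in the wild-type-host library, and 7 of these, Cxcl9 among them, had 200 or more reads in the other. Cxcl16 (ENSMUSG00000018920, chromosome 11, 70344809 to 70350811, minus strand), a membrane-bound chemokine that can be shed, had 20 and 113 reads. Its ratio was 6.30 (95% counting interval 3.89 to 10.7), but 12.3% of the 1599 genes with 100 to under 300 reads had a ratio as high or higher. In that read range 27.5% of genes were 2-fold higher and 32.3% were 2-fold lower, so the ratio of Cxcl16 lies within the ordinary scatter of thinly covered genes.

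The monocyte attractants went in different directions. Ccl2 (ENSMUSG00000035385, chromosome 11, 81926397 to 81928280, plus strand), the main CCR2 ligand, was at FPKM 72.1 and 185.3. Its 3537 and 8160 reads gave a ratio of 2.57 (95% counting interval 2.47 to 2.68), and its log2(FPKM + 1) difference was 1.35. Among the 1137 genes with 10000 or more reads, 1.93% were 2-fold higher and 0.528% had a ratio as high as Ccl2. Ccl7 (ENSMUSG00000035373, chromosome 11, 81936538 to 81938352, plus strand), the next gene along and also a CCR2 ligand, had 1261 and 1516 reads. Its ratio of 1.34 (95% counting interval 1.24 to 1.45) was reached by 18.5% of genes in its read range. The intervals of these neighbouring genes did not overlap, and the reads of Ccl2 per read of Ccl7 were 2.80 in the wild-type-host library and 5.38 in the other.

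Cx3cl1 (ENSMUSG00000031778, chromosome 8, 95498637 to 95509056, plus strand), a chemokine with a membrane stalk, was lower in the knockout-host library. It was at FPKM 31.0 and 22.5 with 8410 and 5473 reads, a ratio of 0.726 (95% counting interval 0.701 to 0.751). Of the genes in its read range, 4.93% reached a ratio this low. Its log2(FPKM + 1) difference of -0.45 did not reach the size rule. Reads of Ccl2 per read of Cx3cl1 were 0.421 and 1.49. Per kilobase of transcript, the level of Ccl2 over that of Cx3cl1 was 1.71 and 6.08, so on that scale Ccl2 was above Cx3cl1 in both libraries. That scale takes all counted reads as exonic, which was not tested.

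Among the neutrophil attractants Cxcl1 held nearly all reads and was the only one of the 3 with a higher value. Cxcl1 (ENSMUSG00000029380, chromosome 5, 91039100 to 91040975, plus strand) was at FPKM 113.0 and 181.7, with 5525 and 7968 reads. The ratio was 1.61 (95% counting interval 1.55 to 1.66) and the log2(FPKM + 1) difference 0.68, under the size rule. Among genes with 10000 or more reads, 4.40% had a ratio as high or higher. Cxcl2 (ENSMUSG00000058427, chromosome 5, 91051730 to 91053798, plus strand), the neighbouring gene with the shared run GGGAATTTCCC upstream, had 70 and 45 reads. Its ratio of 0.717 had a 95% counting interval of 0.482 to 1.06, so a difference was not detectable at this depth. Cxcl1 had 78.9 reads for each read of Cxcl2 in the wild-type-host library and 177.1 in the other. Cxcl5 (ENSMUSG00000029371, chromosome 5, 90907219 to 90909484, plus strand) had 32 reads in the wild-type-host library and was listed at 0 in the other. Of 774 genes with 20 to 60 reads in the wild-type-host library, 153 were also listed at 0 in the knockout-host library.

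Cxcl12 (ENSMUSG00000061353, chromosome 6, 117145496 to 117158329, plus strand) had the most reads of the 10 genes and nearly the same level in both libraries. It was at FPKM 35.0 and 36.9, with 11694 and 11075 reads, a ratio of 1.06 (95% counting interval 1.03 to 1.08). Of the genes in its read range, 39.5% had a ratio as high or higher. CXCL12 is a usual product of fibroblasts and pericytes. In the same pair of libraries the fibroblast gene Col1a1 had 16111 and 2059 reads (ratio 0.142) and the pericyte gene Pdgfrb 9206 and 1691 (ratio 0.205). Col1a1 had the lowest ratio of the 9 fibroblast genes with 100 or more reads, whose median log2 read ratio was -0.62, while Pdgfra was at a ratio of 0.966.

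**Figure D2:**
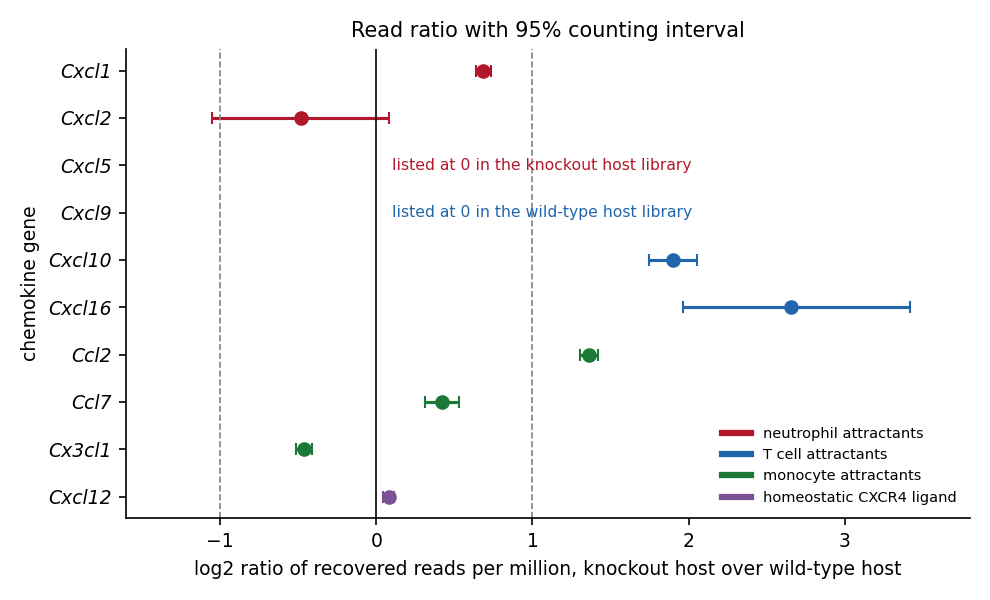
Log2 ratio of RPM, knockout host over wild-type host (horizontal axis), for each chemokine gene; bars are 95% counting intervals and dashed lines mark a 2-fold difference. Cxcl10, Cxcl16 and Ccl2 lie beyond the right dashed line, Cx3cl1 lies left of 0, and Cxcl5 and Cxcl9 have no ratio because a library is listed at 0.

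**Figure D3:**
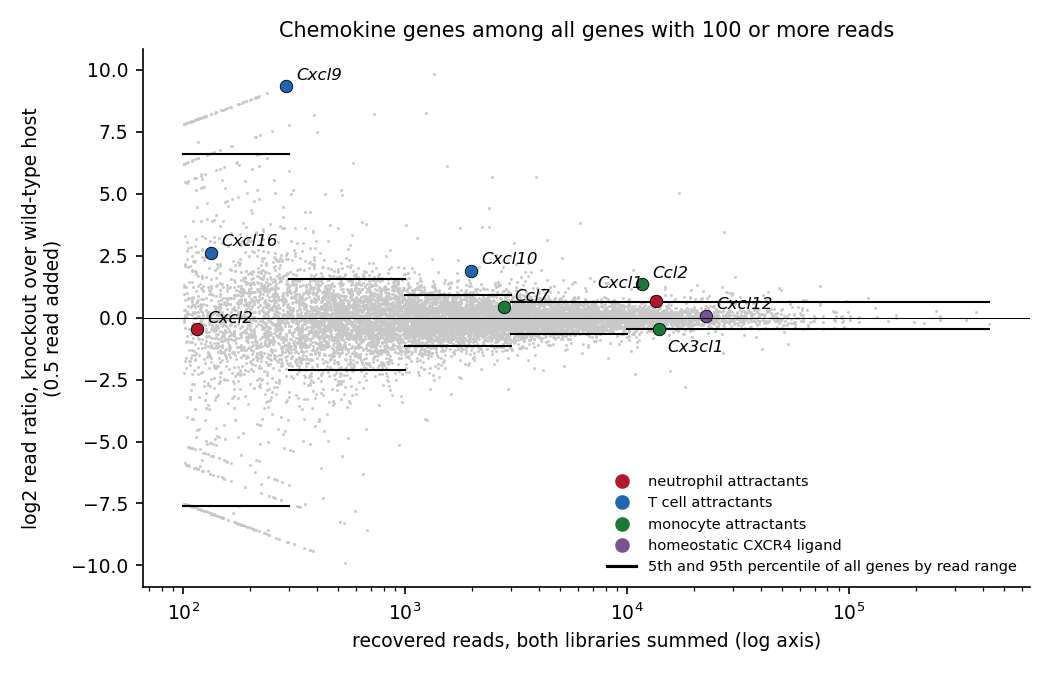
Log2 read ratio with 0.5 read added (vertical axis) against the reads of both libraries summed (horizontal log axis) for the 10813 genes with 100 or more reads (grey) and for 9 chemokine genes (coloured). Black lines are the 5th and 95th percentiles of all genes in each read range; Cxcl10, Ccl2, Cxcl1 and Cxcl9 lie above the upper line, Cx3cl1 lies at the lower one, and Cxcl9 is placed by the added 0.5 read.

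Taken by class, the T cell attractants had the largest relative difference and the smallest level. Their summed level was 18.1 RPM in the wild-type-host library and 82.2 RPM in the other, a ratio of 4.53, and Cxcl10 made up most of both sums. Without Cxcl9, which is listed at 0 in the first library, the ratio was 3.84. The neutrophil attractants summed to 215.8 and 342.7 RPM (ratio 1.59), nearly all of it Cxcl1. The monocyte attractants summed to 506.6 and 647.9 RPM (ratio 1.28), where the higher Ccl2 and the lower Cx3cl1 partly cancelled. Summed per kilobase of transcript, the monocyte attractants had a ratio of 1.79 and the neutrophil attractants 1.59, so the order of these classes depends on the scale. All 10 genes together had 1189 and 1546 RPM. With all 3 genes of each class kept, the median log2(FPKM + 1) differences were 1.51 for T cell, 0.41 for monocyte and -0.25 for neutrophil attractants; the first of these is the value of Cxcl9. Under the mean filter the T cell class rests on Cxcl10 alone (1.77) and the neutrophil class on Cxcl1 and Cxcl2 (0.21). With 3 genes a class and 1 library a group, the difference between classes was not tested.

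Cxcl12, Cx3cl1, Cxcl1 and Ccl2 together took 94.1% of the reads of the 10 genes in the wild-type-host library and 90.4% in the other. Within these, Ccl2 went from 11.4% to 22.6% of the chemokine reads and Cx3cl1 from 27.1% to 15.1%. Cxcl10 went from 1.46% to 4.20%, and Cxcl12 from 37.7% to 30.6%. A level meant for comparison between genes is reads per kilobase of the main annotated transcript per 1000000 reads, with lengths from GENCODE M21. It takes all counted reads as exonic, which was not tested. On this scale Cxcl1 was highest in the wild-type-host library at 222.4, followed by Ccl2 at 166.9, Cxcl12 at 143.2, Cx3cl1 at 97.3 and Ccl7 at 60.4. In the knockout-host library Ccl2 was highest at 429.2, followed by Cxcl1 at 357.6, Cxcl12 at 151.2, Ccl7 at 80.9 and Cx3cl1 at 70.6. Cxcl10 was in the sixth place in both, at 15.9 and 59.3, and each of the other 4 genes was below 5 in both.

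**Figure D4:**
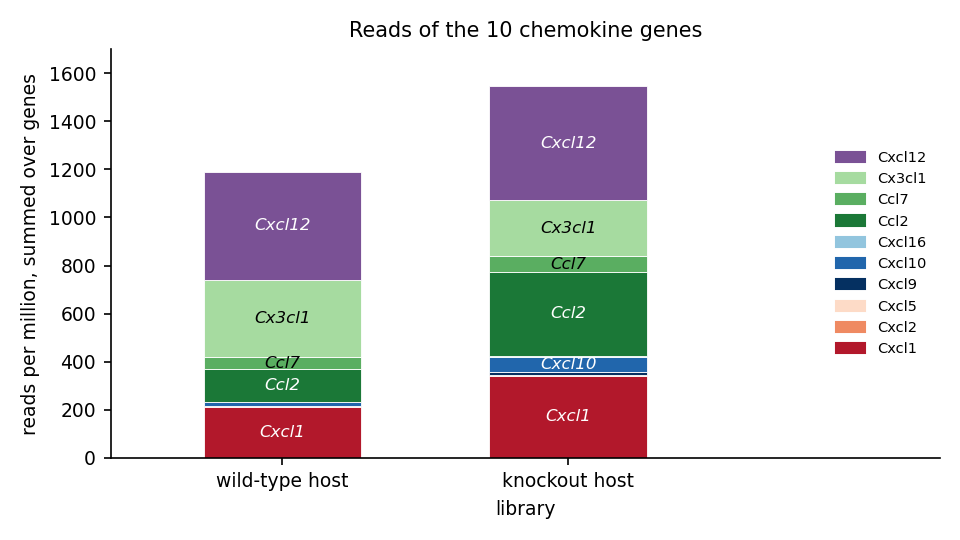
RPM of the 10 chemokine genes stacked by gene (vertical axis) in each of the 2 libraries (horizontal axis). The stacks total 1189 and 1546 RPM; the Ccl2 part grows from 135.7 to 349.0 RPM and the Cx3cl1 part shrinks from 322.6 to 234.1 RPM.

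Other chemokine genes were sparse. Of a list of 30 further chemokine and chemokine-like genes, 10 were in the table and 5 had 100 or more reads. Of these, 2 were 2-fold higher and 0 were lower, against 8.89% and 12% of all genes. Ccl5, a T cell and monocyte attractant, had 1 and 100 reads, a ratio of 111.5 whose 95% counting interval ran from 19.6 to 4447. It sits in the read range where 27.5% of genes were 2-fold higher. Ccl9, a ligand of CCR1, had 79.1 and 181.7 reads (ratio 2.57, 95% counting interval 1.96 to 3.39). Ccl25 had 260 and 229 reads, the cytokine Mif 1010 and 993, and the chemokine-like factor Cklf 407.6 and 252.1. Cxcl11, the third CXCR3 ligand, was listed at 0 and 22 reads. Ppbp had 53 and 1 reads and Pf4 had 23 and 12, and both are also among the platelet genes below. Cxcl11, Ppbp and Pf4 were chosen after their values were seen.

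The receptors for these chemokines had few reads in the sorted cells, apart from Ackr3. Of 24 receptor genes 11 were in the table, and 4 had 100 or more reads. Of these, 1 was 2-fold higher and 0 were lower, against 8.89% and 12% of all genes. Ackr3, an atypical receptor that takes up CXCL12 and CXCL11, had 3892 and 4735 reads (ratio 1.36, 95% counting interval 1.30 to 1.42). Cxcr2, the receptor of the neutrophil attractants, had 224.5 and 117.0 reads. Cxcr6, the receptor of CXCL16, had 44 and 147 reads (ratio 3.73, 95% counting interval 2.64 to 5.34). It sits in the read range where 27.5% of genes were 2-fold higher. Cxcr4 had 41 and 36 reads, Ccr2 had 35.2 and 17.5, and Cx3cr1 had 49 and a listed 0; these 3 were chosen after their values were seen. Cxcr3 was not analysed here.

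Genes that trim, shed or display chemokines were mostly within 2-fold. Of 15 proteases and inhibitors of the list, 12 had 100 or more reads, with 1 being 2-fold higher and 3 lower, against 8.89% and 12% of all genes. Mmp2, a gelatinase that can cleave CXCL12 and CCL7, had 2028 and 562.6 reads (ratio 0.310, 95% counting interval 0.281 to 0.340). Mmp3 had 109 reads and a listed 0, and the inhibitor Timp3 had 9 and 126. The most covered were Timp2, with 23657 and 15636 reads, and Mmp14, with 8594 and 10127. Adam10 and Adam17, which shed CX3CL1 and CXCL16, had 6942 and 7757 reads and 3209 and 2578 reads; they were chosen after their values were seen. Of 18 heparan sulphate genes with 100 or more reads 0 were 2-fold higher and 1 was lower, Gpc6, with 1233 and 529 reads. Sdc4, a heparan sulphate proteoglycan, had 20265 and 22317 reads, and Sdc2 had 18422 and 15421. Sdc3 was at a ratio of 0.531 and Gpc4 at 0.655.

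In both signalling routes that drive chemokine genes, more genes had a read ratio above 1 than below it. Of 28 NF-kB route genes with 100 or more reads, 5 were 2-fold higher and 0 were lower, against 8.89% and 12% of all genes. The median log2 read ratio was 0.32, against -0.06 over all 10813 genes. In this list 22 genes lay above 0 and 6 below, against 4920 and 5893 of all genes. Rel, an NF-kB subunit, had 2029 and 5054 reads (ratio 2.78, 95% counting interval 2.64 to 2.93). Tnfaip3, a feedback inhibitor of NF-kB, had 16803 and 32827 reads (ratio 2.18), and Il1rl1, the receptor for IL-33, had 9948 and 18365 (ratio 2.06). The other higher genes were the inhibitor Nfkbib, with 73 and 185 reads, and the co-regulator Bcl3, with 32 and 78, both thinly covered. Of 21 interferon route genes, 6 were 2-fold higher and 2 were lower, against 8.89% and 12% of all genes. The median was 0.46, with 15 genes above 0. Irf1, an activator of Cxcl9 and Cxcl10, had 6556 and 12927 reads (ratio 2.20, 95% counting interval 2.13 to 2.27). Irf8 had 18 and 86 reads, while Irf7 had 99 and 5. Ifngr2, a subunit of the interferon gamma receptor chosen after its values were seen, had 875 and 295 reads. The kinase gene Jak1, with 5984 and 6668 reads, was at a ratio of 1.24. These lists were drawn up with earlier results of the same libraries known, so their direction is not independent evidence.

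**Figure D5:**
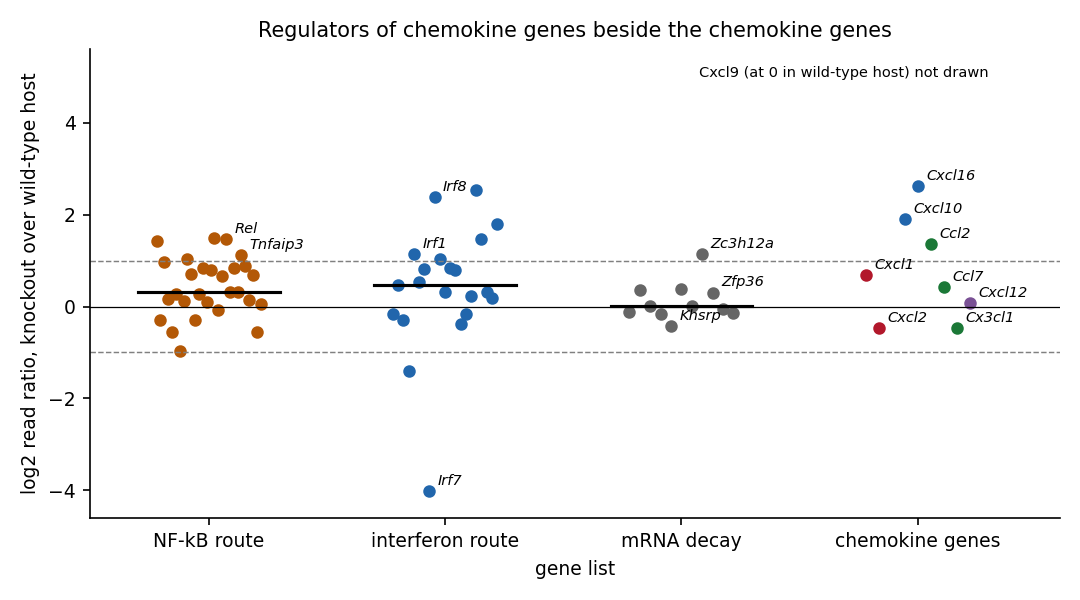
Log2 read ratio with 0.5 read added (vertical axis) of each gene with 100 or more reads in the NF-kB, interferon and mRNA decay lists and of 8 chemokine genes; black bars are list medians and dashed lines mark 2-fold. The medians are 0.32, 0.46 and 0.003, and Irf7 lies far below the rest of the interferon list.

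Genes that control the decay of chemokine mRNA were nearly level. Of 11 genes, 1 was 2-fold higher and 0 were lower, against 8.89% and 12% of all genes. The median log2 read ratio was 0.003. That median is the value of Elavl1, which stabilises AU-rich mRNAs, and over the other 10 genes it was -0.02. The higher one was Zc3h12a, an endonuclease that degrades inflammatory mRNAs, with 191 and 378 reads. Zfp36, whose protein binds AU-rich elements of such mRNAs, had 30599 and 33813 reads (ratio 1.23). Khsrp was at a ratio of 0.744, Rc3h1 at 1.30 and Rc3h2 at 1.01. Among 11 cytokine genes with 100 or more reads, 4 were 2-fold higher and 2 were lower, against 8.89% and 12% of all genes. Lif, a gp130 cytokine, had 11098 and 18588 reads (ratio 1.87), and Csf1, the macrophage growth factor, had 17584 and 19801 (ratio 1.26). Il7 had 71 and 221 reads, Tnfsf10 (TRAIL) 7 and 151.7, Il11 68 and 197.9, and Tslp 93 and 19. All of these lie in the read range where 27.5% of genes were 2-fold higher and 32.3% lower. The rest of the count was better covered: Csf2 had 561 and 1013 reads (ratio 2.01) and Il33 had 394 and 167 (ratio 0.473). Il11, Csf2 and Il33 were chosen after their values were seen.

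Some markers of leukocytes, which the gate should exclude, and of platelets were detected. The 9 listed pan-leukocyte genes of 10 summed to 20.3 RPM in the wild-type-host library and 22.2 RPM in the other, with Ptprc, which encodes CD45, at 46 and 64 reads. Of 12 T and NK cell markers 2 were in the table, Cd4 and Cd8a, and they summed to 0.988 and 2.31 RPM. They went in opposite directions, with 19 and 1 reads for Cd4 and 6.8 and 53 for Cd8a. Both had under 100 reads in total. The 13 macrophage and monocyte genes summed to 193.7 and 228.8 RPM, most of it Lyz2 with 3504 and 3471 reads, and Mpeg1 had 378 and 952 reads. The 6 listed neutrophil genes of 10 summed to 110.3 and 81.8 RPM, most of it Mmp9, which other cells also express, with 2715 and 1723 reads. Of 3 with 100 or more reads 1 was 2-fold higher and 0 lower, against 8.89% and 12% of all genes. The higher one was Ltf, with 26 and 87 reads, and Ngp had 80 and 66. The 4 listed platelet genes of 8 summed to 8.74 and 3.58 RPM. The macrophage and neutrophil sums were above or near that of the T cell attractants, 18.1 and 82.2 RPM. The part of leukocyte RNA in the chemokine differences was not tested.

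Fibroblast and pericyte markers with 100 or more reads all had a read ratio below 1, the other way from Cxcl10 and Ccl2. The 11 listed fibroblast genes of 13 summed to 3182 and 1671 RPM, and of 9 with 100 or more reads 4 were 2-fold lower and 0 were higher, against 12% and 8.89% of all genes. Col3a1 had 29627 and 11076 reads, Dcn 784 and 158, Dpt 322 and 44, and Ogn 15509 and 11476. The 6 listed pericyte and smooth muscle genes of 12 summed to 425.3 and 94.2 RPM, with Notch3 at 950 and 188 reads and Cspg4 at 190 and a listed 0. Of 4 with 100 or more reads 4 were 2-fold lower and 0 were higher, against 12% and 8.89% of all genes. The thinly covered Abcc9 of this list was higher, with 1 and 55.7 reads. The 5 listed endothelial genes of 12 summed to 24.1 and 17.0 RPM: Plvap had 348 and 58 reads, Ecscr 145 and 59, Cdh5 1 and 146, and Pecam1 129 and 128. Of 6 epithelial genes 3 were 2-fold higher and 0 lower, against 8.89% and 12% of all genes: Cldn4 had 251 and 783 reads, and Epcam (55 and 151) and Krt19 (100 and 271) were thinly covered, while Krt8 had 3172 and 4050. The 10 mesenchymal genes of the tumour line summed to 10320 and 9835 RPM with 0 of 10 being 2-fold different: Vim was at a ratio of 0.917, Fn1 at 0.858, Cd44 at 1.44 and Lgals1 at 0.633. The part of these shifts in cell make-up in the chemokine values was not tested.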

How the data were processed

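The deposited table, made by the authors, holds log2 values of 12707 protein-coding genes in 2 columns. STAR 2.7.8a, Partek and mm39 are named in the submitters' processing notes. For their roles, strand handling and filters, nothing is stated in the sources used here. The deposited log2 values are log2(FPKM + 1): turned back and multiplied by the length column, each library sums to 1000000, and that length is stop minus start (100% of rows), so introns count. Coordinates are printed as in that table.

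Reads were recovered from whole-read steps. Under 1000 reads, 84.8% (wild-type host) and 83.3% (knockout host) of values were whole within 0.1 read. The other values are fractional, so the counting shared some reads, and Ccl2 and Cxcl9 have such a value. Values under 0.05 read were taken as 0. Intervals are exact Clopper-Pearson (95%) and cover counting error only (no molecular identifiers are stated, so PCR copies count as reads). Recovery was tested on simulated whole reads, where 100% of values under 1000 reads came back within 0.1 read. Fractional values were not simulated, so recovery of values like those of Ccl2 and Cxcl9 was not tested.

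With 1 library per group no test was run. Ranges of total reads, transcript lengths, the sum without Cxcl9 and the median without Elavl1 were chosen after seeing the data. Members and lists were chosen with earlier results of these data known. Named genes were the 10 members, every other chemokine or receptor gene with 100 or more reads, Mtdh, and per list the 3 largest ratios and the 2 highest read totals; 2 genes this rule names are not reported here. Python 3.11.15, numpy 2.4.6, pandas 2.3.3 and scipy 1.17.1 were used. Alternatives covered pseudocounts, filters, scaling and the read scale.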

Additional observations from a re-analysis of the deposited data

How the results depend on the processing

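The directions of all 10 chemokine genes held under each of the alternatives run for them (pseudocounts of 0.1 and 5, median centring, quantile normalization and, for the 8 genes above 0 in both libraries, the read scale). Ccl2 ranged from 1.26 to 1.38, Cxcl10 from 1.41 to 1.90 and Cxcl1 from 0.51 to 0.71 on the log2 scale. Cxcl16 ranged from 0.18 to 2.63, since its FPKM is below 1 and the added value decides it. The count of 2 higher genes became 4 on the read scale and 3 without a filter, with a 1.5-fold rule, or on the read scale without genes listed at 0 (chosen after seeing the data); 0 were lower in each. The median of the neutrophil attractants, 0.21 over Cxcl1 and Cxcl2, was 0.12 with 0.1 added, 0.29 with 5 added, 0.11 on the read scale and 0.14 under quantile normalization, and turned to -0.25 without the filter, where Cxcl5 enters. The T cell median was 1.41 with 5 added and 1.51 without the filter. The monocyte median turned from 0.41 to -0.018 with whole reads only, because Ccl2, with a fractional value, leaves. Scaling by the median gene gave ratios of 1.68 for Cxcl1, 2.69 for Ccl2, 0.758 for Cx3cl1 and 1.10 for Cxcl12. The counts over all genes, 140 higher and 160 lower, depended more on the settings: 285 and 332 with 0.1 added, 41 and 30 with 5 added, 69 and 71 with a mean of 2 or more, 412 and 489 with the 1.5-fold rule, and 961 and 1295 on the read scale. No paired analysis was possible because each group has 1 library. Depth limits Cxcl2, Cxcl5, Cxcl9 and Cxcl16.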
